A study of Homo sapiens with 6 samples.

Results

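S100 proteins are small calcium-binding proteins, and 10 of their genes were examined here in RNA-seq of brain metastatic lung cancer cells with or without silencing of AKR1B10. They are S100A2, S100A4, S100A6, S100A8, S100A9, S100A10, S100A11, S100A14, S100A16 and S100P, taken by their symbols from a table of 58735 genes, and all 10 were found. The level of each gene was given as FPKM, the fragments per kilobase of gene length scaled by a divisor set for each library. Levels set beside those of other genes therefore rest on the gene lengths used. All 10 passed the minimum mean of 1 FPKM over the 6 libraries that was set for testing. The cells were PC9-BrM3, a derivative of the human lung adenocarcinoma line PC9 that was obtained by repeated heart injection into immunodeficient mice and isolation from the brain metastases. In the BrM3-shAKR1B10 group (n = 3) the cells carried the first of the study's short hairpin RNAs against AKR1B10, an aldo-keto reductase, and the labels give the genotype as AKR1B10 knockdown. In the BrM3-shNC group (n = 3) they carried a negative control hairpin, and the labels give the genotype as WT. Both groups shared the line, the LV2 lentiviral vector, which also carried luciferase, and routine culture, so each result concerns 1 hairpin in 1 derived line grown without added drug. The sources used here do not say whether the 3 libraries of a group came from separate cultures, so the p-values measure the spread between these libraries, which may be technical.

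An S100 protein binds calcium through a pair of EF-hand loops and usually works as a dimer. Binding opens a surface that docks onto a target inside the cell, such as an annexin, a myosin heavy chain or a scaffold protein. Several S100 proteins are also released and are then read by cell-surface receptors such as RAGE, the product of AGER, and TLR4. Epithelial cells and their carcinomas express many members, whereas S100A8 and S100A9 are best known from neutrophils and monocytes.

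Nearly all members lie together in the genome. In the coordinates of the table, which match GENCODE 29 (GRCh38) for all 58735 genes, 9 members lay on chromosome 1 between 151982915 and 153616986, and S100P lay alone on chromosome 4 (6693069 to 6697170, plus strand). S100A10 (ENSG00000197747) and S100A11 (ENSG00000163191) stood at one edge of the chromosome 1 stretch, 38115 bases apart. The other chromosome 1 members stood at the opposite edge, where S100A6 (ENSG00000197956, 153534599 to 153536244) and S100A4 (ENSG00000196154, 153543613 to 153550136) flank S100A5, and S100A16 and S100A14 are 1109 bases apart. S100A9 (ENSG00000163220) is the only member of chromosome 1 on the plus strand, from 153357854 to 153361027.

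The RefSeq promoters of the members, from 250 bases before to 50 bases after a start on GRCh38.p14, held 14 starts for the 10 genes. They were searched on both strands for 3 motifs. TATAAA, the core of the TATA box that places a transcription start, was found at 5 of the 14 starts, which belong to 4 members, and in 11.5% of all 35116 single promoters. The windows of these 4 members are shown because each holds the motif at nearly the same distance from a start. At a limma adjusted p under 0.05, S100A4 was lower and S100A9 and S100P were higher after AKR1B10 silencing, while S100A8 did not pass. S100A6 and S100A16 were also higher, and their promoters held no TATAAA. A link between the motif and these changes was not tested. Each window runs from 40 to 11 bases before the start, 5′ to 3′ on the gene's own strand, with TATAAA in capitals.
S100A4: tggctggggTATAAAtaggtcagacctctg
S100A8: agcctaaccgcTATAAAaaggagctgcctc
S100A9: caggagctgccTATAAAtgccgagcctgca
S100P: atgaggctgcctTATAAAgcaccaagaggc
The window of S100A4 lay at chr1:153545817-153545846 on the minus strand and that of S100A8 at chr1:153391084-153391113 on the minus strand. The window of S100A9 lay at chr1:153357814-153357843 and that of S100P at chr4:6693838-6693867, both on the plus strand. The motif began 31 bases before the start in S100A4, 29 in S100A8 and S100A9 and 28 in S100P. S100A8 has 3 RefSeq starts, and the window shown is that of the start at 153391073. From the start at 153390976 the same motif lay at position -126, and the promoter of the third start, at 153391188, held none. TGANTCA, the AP-1 motif, was found among the members in 1 promoter of S100A2 alone, against 7.71% of all promoters, and TGACNNNGC, the core of the antioxidant response element, in 1 promoter each of S100A14 and S100A16, against 13.3%. These matches describe letters in the windows and say nothing of whether a factor was bound.

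The silenced gene was reported first as a check of the labels. AKR1B10 stood at 108.3, 107.2 and 110.2 FPKM in BrM3-shAKR1B10 replicates 1, 2 and 3, and at 798.7, 775.0 and 772.0 FPKM in BrM3-shNC replicates 1, 2 and 3. It was lower by 2.85 on the log2 scale of FPKM plus 0.1 (log2 fold change -2.85, limma adjusted p = 1.59e-07), and the groups did not overlap. The libraries held 16964504 to 18709028 reads on genes. All 6 epithelial markers were expressed, with a summed level of 3167 to 3253 FPKM in BrM3-shAKR1B10 and 2986 to 3348 FPKM in BrM3-shNC. Of these, EPCAM (log2 fold change -0.24, limma adjusted p = 0.00975) and KRT7 (-0.19, adjusted p = 0.0207) were lower and CDH1 (0.16, adjusted p = 0.00975) was higher, and their part in the S100 results was not tested. The adjusted p of KRT7 was 0.059 to 0.0711 (limma) without BrM3-shAKR1B10 replicate 1 or 2 or BrM3-shNC replicate 2. The 3 lung adenocarcinoma markers NKX2-1, NAPSA and SFTPB all stayed under 1 FPKM, so the markers of the epithelium were present and those of the lung lineage were at or near 0. Of 5 fibroblast markers, COL1A2, DCN and LUM were at 0 in every library and PDGFRB had 3 to 9 reads, while COL1A1 had 200 to 356 reads and was lower in BrM3-shAKR1B10 (1.22 against 1.98 FPKM, log2 fold change -0.67, limma adjusted p = 0.00319).

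Most of the 10 S100 genes were abundant in these cells, and S100A8 and S100A2 were not. From the highest to the lowest mean level, the order was S100A6, S100A11, S100A9, S100A10, S100A14, S100A16, S100P, S100A4, S100A8 and S100A2, and in all 9 neighbouring pairs the libraries of the 2 genes did not overlap within either group. S100A6 ranked 33 of the 58735 genes by mean FPKM, and 7 members were above 50 FPKM, the lowest of these being S100P at rank 300. S100A4 ranked 1049, S100A8 ranked 7361 and S100A2 ranked 10245. The level of S100A6 was 281-fold that of S100A2. S100A6 alone made up 30.4% of the members' summed FPKM, and S100A6, S100A11 and S100A9 together made up 67.1%.

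The question of the comparison was which genes change when AKR1B10 is silenced. A gene was called when its limma adjusted p was under 0.05 and its log2 fold change was above 0.5 or under -0.5. By this rule 0 of the 10 members were called in either direction, where 13.3% of the 13150 genes tested were called, and limma's voom on reads recovered from the FPKM also called 0. At an adjusted p under 0.05 alone, S100A4 was lower and S100A6, S100A9, S100A16 and S100P were higher. These 5 of 10 members stand beside 42.5% of all genes tested, with 23.1% of all genes lower and 19.4% higher. The median log2 fold change of the members was 0.12, beside -0.01 for all genes tested, and the median size without sign was 0.18 beside 0.20. The folds of the members lay between 0.758 for S100A4 and 1.27 for S100A9.

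**Figure D1:**
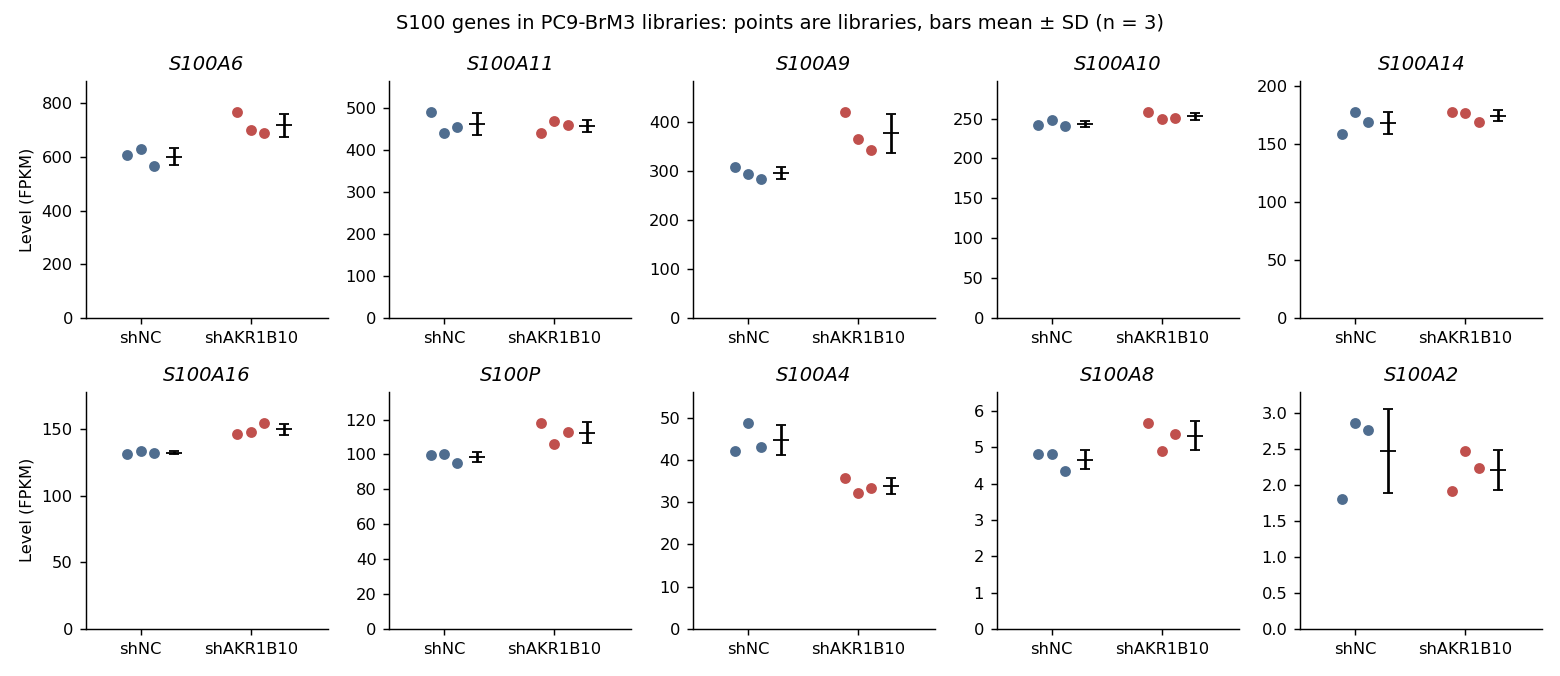
Level of each of the 10 S100 genes in FPKM (linear axes from 0), with each library as a point and the mean ± SD (n = 3) as a bar beside it, for BrM3-shNC and BrM3-shAKR1B10. The points of S100A4 are lower in BrM3-shAKR1B10 without overlap, those of S100A6, S100A8, S100A9, S100A10, S100A16 and S100P are higher without overlap, and those of S100A2, S100A11 and S100A14 overlap.

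S100A4, which binds the heavy chain of non-muscle myosin and is known for its link to cell motility and metastasis, was the only member that was lower at an adjusted p under 0.05. It stood at 35.83, 32.15 and 33.45 FPKM in BrM3-shAKR1B10 replicates 1, 2 and 3. In BrM3-shNC it stood at 42.21, 48.81 and 42.98 FPKM. Every silenced library was below every control library, with the highest control level in replicate 2. The mean was 33.81 ± 1.87 FPKM against 44.67 ± 3.61 FPKM (SD, n = 3), a fold of 0.758. On the log2 scale the change was -0.40 with a standard error of 0.0674 and a 95% interval of -0.56 to -0.24 (limma adjusted p = 0.0039). These levels rested on 595 to 846 reads per library. S100A3 lies within the span of S100A4, with no shared exon bases, and its mean level was 0.961 ± 0.251 FPKM against 1.20 ± 0.0967 FPKM with overlapping groups. The myosin partners of S100A4 differed in direction from each other. MYH9, the main non-muscle myosin heavy chain, was higher by 0.10 on the log2 scale (limma adjusted p = 0.0466), and the log2 fold change of MYH10, another such chain, was -0.23 (limma adjusted p = 0.0138). The result of MYH9 was not firm, since its adjusted p was 0.0681 to 0.126 (limma) when any library but BrM3-shNC replicate 3 was left out.

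S100A6, or calcyclin, is a partner of annexins and of the ubiquitin ligase adaptor CACYBP and is often abundant in proliferating epithelial cells. It was the most abundant member in both groups, at 766.7, 698.8 and 687.5 FPKM in BrM3-shAKR1B10 and at 605.5, 629.1 and 566.0 FPKM in BrM3-shNC. All 3 silenced libraries were above all 3 controls, and replicate 1 was the highest of the silenced libraries. The mean was 717.7 ± 42.9 FPKM against 600.2 ± 31.9 FPKM (SD, n = 3), a fold of 1.20. The log2 fold change was 0.26 with a standard error of 0.0587 and a 95% interval of 0.12 to 0.40 (limma adjusted p = 0.013). When every gene above 0 was tested, with no minimum level, the adjusted p of S100A6 was 0.0576. S100A6 shares 23 exon bases, or 2.37% of its own, with the antisense gene BX470102.1, which had a mean of 2.03 FPKM, and since no source used here states that strand was counted, reads on these bases cannot be told apart.

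The neighbours S100A6 and S100A4 therefore stood on opposite sides of the control. Their ratio of FPKM within a library, chosen after the values were seen, was 21.4, 21.7 and 20.6 in BrM3-shAKR1B10 replicates 1, 2 and 3. In BrM3-shNC it was 14.3, 12.9 and 13.2. The silenced libraries were all above the controls, and the mean ratio was 1.58-fold higher, a description that the separate changes of the genes already fix. S100A5, which lies between these genes, had a mean of 3.03 ± 0.746 FPKM against 2.82 ± 0.366 FPKM, with overlapping groups.

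S100A9 and S100A8 form the heterodimer calprotectin, which binds metal ions and signals through RAGE and TLR4. S100A9 was the third most abundant member, at 420.7, 366.4 and 343.3 FPKM in BrM3-shAKR1B10 and at 307.9, 294.6 and 284.0 FPKM in BrM3-shNC. The silenced libraries were all above the controls and more spread out, with replicate 1 the highest. The mean was 376.8 ± 39.7 FPKM against 295.5 ± 11.95 FPKM (SD, n = 3), a fold of 1.27. The log2 fold change was 0.35 with a standard error of 0.0766 and a 95% interval of 0.16 to 0.53 (limma adjusted p = 0.0117).

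S100A8, the other chain of the pair, was far less abundant than S100A9. It stood at 5.68, 4.90 and 5.38 FPKM in BrM3-shAKR1B10 and at 4.82, 4.82 and 4.36 FPKM in BrM3-shNC, from 80 to 101 reads per library. The groups did not overlap, but silenced replicate 2 was close to the highest controls. The log2 fold change was 0.18 with a standard error of 0.0725 and a 95% interval of 0.01 to 0.36, and the adjusted p was 0.082 (limma). Without BrM3-shAKR1B10 replicate 2 the log2 fold change was 0.24 and the adjusted p was 0.045 (limma). The ratio of S100A9 to S100A8 in FPKM was 74.0, 74.8 and 63.8 in the silenced libraries and 63.9, 61.1 and 65.2 in the controls. The groups overlapped (exact permutation test, two-sided, p = 0.30), and in every library the FPKM of S100A9 was at least 61.1-fold that of its partner.

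Because this pair is best known from myeloid cells, the leukocyte markers were read beside it. None of the 8 markers reached the minimum level for testing, and their summed level was 1.03 to 1.08 FPKM in BrM3-shAKR1B10 and 1.04 to 1.32 FPKM in BrM3-shNC. LYZ was at 0 in every library, and MPO, CD3E, CSF3R and FCGR3B had at most 3 reads in any library. CD14 accounted for most of the sum, with up to 1.10 FPKM. In these bulk libraries fewer cells of a type and less RNA per cell cannot be told apart.

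**Figure D2:**
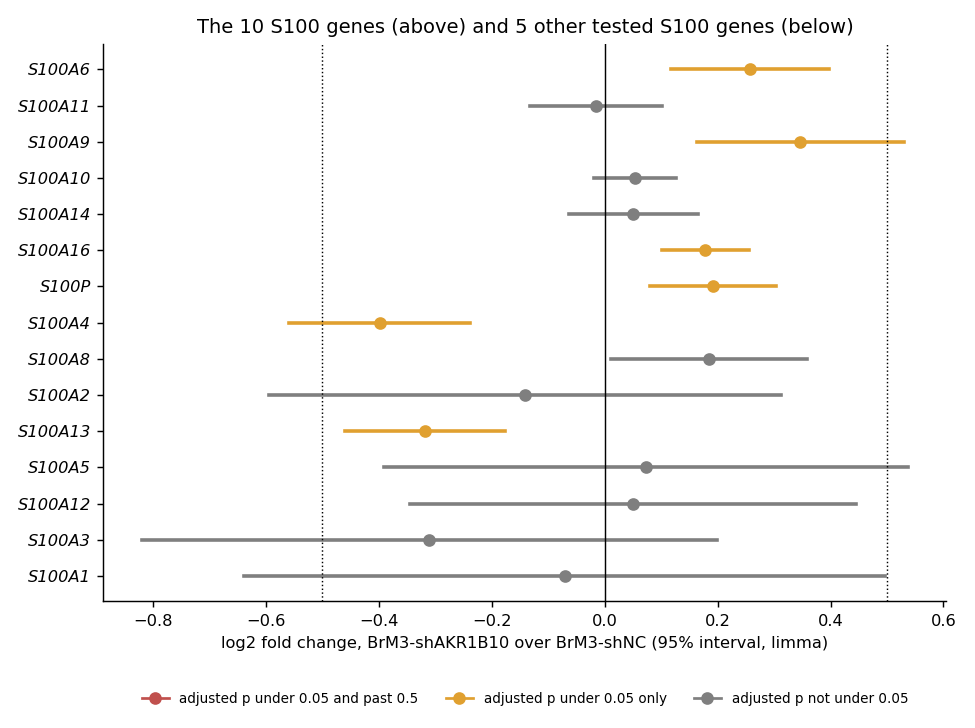
log2 fold change of FPKM plus 0.1 (x axis, BrM3-shAKR1B10 over BrM3-shNC) with its 95% interval from limma for the 10 S100 genes, from the most to the least abundant, and for the 5 other S100 genes tested. No gene passes both the adjusted p of 0.05 and the dotted lines at 0.5 and -0.5, while S100A4 and S100A13 are lower and S100A6, S100A9, S100A16 and S100P higher at the adjusted p alone.

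S100P, the member on chromosome 4, binds ezrin and IQGAP1 inside the cell and RAGE outside it. It stood at 118.2, 106.2 and 112.7 FPKM in BrM3-shAKR1B10 and at 99.58, 100.3 and 95.12 FPKM in BrM3-shNC. Every silenced library was above every control. The mean was 112.4 ± 6.05 FPKM against 98.33 ± 2.80 FPKM (SD, n = 3), a fold of 1.14. The log2 fold change was 0.19 with a standard error of 0.0468 and a 95% interval of 0.08 to 0.30 (limma adjusted p = 0.017). This adjusted p was 0.054 without BrM3-shAKR1B10 replicate 3 and 0.0519 without BrM3-shNC replicate 3 (limma), with log2 fold changes of 0.19 and 0.17. Of its intracellular partners, EZR, which encodes ezrin, was higher at 209.2 ± 4.33 FPKM against 180.9 ± 3.14 FPKM (log2 fold change 0.21, limma adjusted p = 0.00221). IQGAP1, a scaffold of the cortical actin skeleton, had a log2 fold change of -0.03 with an interval of -0.11 to 0.06 (limma adjusted p = 0.546), and its sign turned under other scalings.

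S100A16 and its neighbour S100A14 are both widely expressed in epithelia. S100A16 stood at 146.7, 148.0 and 154.9 FPKM in BrM3-shAKR1B10 and at 131.1, 133.8 and 132.3 FPKM in BrM3-shNC. The silenced libraries were all above the controls, with replicate 3 the highest. The mean was 149.9 ± 4.46 FPKM against 132.4 ± 1.36 FPKM (SD, n = 3), a fold of 1.13 and a log2 fold change of 0.18 with a standard error of 0.0322 and an interval of 0.10 to 0.26 (limma adjusted p = 0.00516). S100A14 stood at 177.9, 176.8 and 169.3 FPKM in BrM3-shAKR1B10 and at 159.0, 178.0 and 169.4 FPKM in BrM3-shNC. The groups overlapped, and the log2 fold change of 0.05 had an interval of -0.06 to 0.16 (limma adjusted p = 0.436). It was 0.0078 without BrM3-shNC replicate 1, 0.09 without BrM3-shNC replicate 2, and up to 0.11 under other scalings. The difference between the changes of these genes was not tested.

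S100A10, or p11, is held in a complex with annexin A2 that carries proteins to the plasma membrane and binds plasminogen and its activators at the cell surface. S100A10 stood at 258.2, 249.2 and 250.3 FPKM in BrM3-shAKR1B10 and at 241.3, 247.8 and 241.2 FPKM in BrM3-shNC. The silenced libraries were all above the controls, though silenced replicate 2 was close to control replicate 2. The log2 fold change was 0.05 with a standard error of 0.0303 and an interval of -0.02 to 0.13 (limma adjusted p = 0.203), and the adjusted p was 0.00884 under quantile scaling and 0.0178 with voom (limma), with log2 fold changes of 0.13 and 0.10.

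Of the partners of S100A10, ANXA2 and AHNAK differed in direction from each other. ANXA2, which encodes annexin A2, was lower at 99.69, 106.1 and 102.9 FPKM against 123.3, 117.6 and 116.9 FPKM (log2 fold change -0.21, limma adjusted p = 0.00452). The silenced libraries of ANXA2 were all below the controls. AHNAK, a giant scaffold protein that docks onto the complex of S100A10 and annexin A2, was higher at 104.8 ± 3.85 FPKM against 71.05 ± 1.696 FPKM (log2 fold change 0.56, limma adjusted p = 9.32e-05). The ratio of S100A10 to ANXA2 in FPKM was 2.59, 2.35 and 2.43 in BrM3-shAKR1B10 and 1.96, 2.11 and 2.06 in BrM3-shNC, or 2.46 ± 0.123 against 2.04 ± 0.0770 (exact permutation test, two-sided, p = 0.10, the smallest p that 3 against 3 libraries allow). The ratio of AHNAK to ANXA2 was 1.01, 1.02 and 1.02 against 0.588, 0.608 and 0.592. Both ratios were thus higher in every silenced library, which shows unequal change of the genes and not which of them changed. The size of a ratio also rests on the gene lengths used, 1543 bases for S100A10, 8824 for ANXA2 and 19465 for AHNAK. By reads, ANXA2 held 15544 to 19968 per library, more than the 6467 to 7040 of S100A10.

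S100A11, a partner of annexin A1 in membrane repair and in keratinocyte growth control, was the second most abundant member. It stood at 441.0, 468.9 and 458.5 FPKM in BrM3-shAKR1B10 and at 489.9, 440.5 and 453.8 FPKM in BrM3-shNC. The groups overlapped, and the log2 fold change of -0.02 had an interval of -0.13 to 0.10 (limma adjusted p = 0.822). Its sign was not stable, being above 0 under TPM, quantile and voom scaling, so no direction is given. Its 13 annotated pseudogenes held at most 5 reads in all per library, against 5066 to 6113 reads on S100A11. ANXA1, which encodes annexin A1, was called lower at 120.8 ± 5.18 FPKM against 203.3 ± 8.95 FPKM (log2 fold change -0.75, limma adjusted p = 6.82e-05).

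S100A2, a mostly nuclear member of basal epithelia that binds p53, was the least abundant. It stood at 1.91, 2.47 and 2.23 FPKM in BrM3-shAKR1B10 and at 1.81, 2.87 and 2.76 FPKM in BrM3-shNC, from 52 to 79 reads per library. BrM3-shNC replicate 1 was the lowest library of all and the groups overlapped. The log2 fold change of -0.14 had an interval of -0.59 to 0.31 (limma adjusted p = 0.583), which holds the change seen in S100A4. Leaving out 1 library moved it from -0.03 without BrM3-shNC replicate 2 to -0.34 without BrM3-shNC replicate 1 (limma adjusted p = 0.0781).

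Between the groups 1 member was lower without overlap, 6 were higher without overlap and 3 overlapped. Of all genes tested, 29.2% were lower and 25.5% higher without overlap, or 54.7% in all. For a single member the exact permutation test (two-sided) gave p = 0.10 wherever the groups did not overlap. The summed FPKM of the 10 members was 2373, 2254 and 2218 in BrM3-shAKR1B10 and 2083, 2081 and 1992 in BrM3-shNC. The silenced libraries were all above the controls, at 2281 ± 81.3 FPKM against 2052 ± 52.0 FPKM, a fold of 1.11 (exact permutation test, two-sided, p = 0.10). As a share of all FPKM the members held 0.766% ± 0.0297 against 0.671% ± 0.0183 (SD, n = 3).

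Of the rest of the S100 family, S100A13 alone was above 5 FPKM. Of 11 other S100 genes, 5 were tested and 0 were called, with a median log2 fold change of -0.07. S100A13, which takes part in the release of growth factors that lack a signal peptide, was the only one with an adjusted p under 0.05. It stood at 13.46, 14.25 and 13.64 FPKM in BrM3-shAKR1B10 and at 17.39, 15.90 and 18.42 FPKM in BrM3-shNC (log2 fold change -0.32, limma adjusted p = 0.00585). All silenced libraries were below the controls, so S100A13, like S100A4, was lower. S100A1, S100A3, S100A5 and S100A12 had adjusted p-values of 0.282 to 0.834 (limma). S100A7A, S100A7L2, S100B, S100G and S100Z were at 0 in every library, and S100A7 had 1 read in 1 library. A count of 0 allows up to 3 reads, or 0.163 to 0.177 FPKM for a gene of 1000 bases, by counting error alone.

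The chromosome 1 members flank the epidermal differentiation complex, which holds genes of the cornified envelope. Of 44 other genes of the complex, 31 were at 0 in every library and 1 was tested. This gene, SPRR1A, a precursor of the cornified envelope, had 7, 14 and 15 reads in BrM3-shAKR1B10 and 1, 1 and 0 reads in BrM3-shNC. It passed the minimum level only through the silenced libraries, at a mean of 2.49 FPKM against 0.140 FPKM, so its call is not read as a result. The abundance of the S100 genes was therefore not seen in these neighbours.

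Some receptors and binding partners of S100 proteins passed both thresholds, unlike the S100 genes. Of 24 listed genes 21 were tested, and 4 were called lower and 1 higher, where 7.45% of all genes tested were called lower and 5.83% higher. At an adjusted p under 0.05 alone, 7 of the 21 were lower and 5 higher, beside 23.1% and 19.4% of all genes tested. Their median log2 fold change was -0.00, beside -0.01 for all genes tested.

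Among the receptors, AGER was called lower and TLR4 was higher at the adjusted p alone. AGER, which encodes RAGE, stood at 3.22, 2.80 and 3.39 FPKM in BrM3-shAKR1B10 and at 4.85, 5.21 and 5.49 FPKM in BrM3-shNC (log2 fold change -0.71, limma adjusted p = 0.000978). TLR4 stood at 1.79, 1.82 and 1.57 FPKM against 1.28, 1.38 and 1.35 FPKM (log2 fold change 0.35, limma adjusted p = 0.0452). The adjusted p of TLR4 rose to between 0.0804 and 0.132 (limma) when any library but BrM3-shAKR1B10 replicate 3 was left out. Neither receptor overlapped between the groups, and both were far less abundant than S100A9 or S100P. Also among the listed genes, BSG stood at 210.5 ± 3.08 FPKM against 201.5 ± 21.5 FPKM, with overlapping groups (log2 fold change 0.07, limma adjusted p = 0.504). MCAM had a log2 fold change of -0.21 (limma adjusted p = 0.0748). ALCAM, an adhesion molecule of the immunoglobulin family that can bind S100A8 and S100A9, was called lower at 28.69 ± 0.574 FPKM against 50.29 ± 2.57 FPKM (log2 fold change -0.81, limma adjusted p = 4.01e-05).

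Of the intracellular partners, CACYBP, which links S100A6 to a ubiquitin ligase, was called lower at 17.59 ± 0.384 FPKM against 25.35 ± 0.894 FPKM (log2 fold change -0.52, limma adjusted p = 0.000128). CACYBP fell short of the threshold of -0.5 without BrM3-shNC replicate 2, at -0.4957, and under TPM, quantile and voom scaling, at -0.4892 to -0.4759, with the adjusted p still under 0.05. S100A6 itself was higher, so the ligand and this partner stood on opposite sides of the control. PLAU, which encodes the plasminogen activator urokinase, was higher at 39.21 ± 0.859 FPKM against 28.41 ± 0.899 FPKM (log2 fold change 0.46, limma adjusted p = 0.000161). Also on the list, PLAT had overlapping groups (log2 fold change 0.10, limma adjusted p = 0.252), and PLG was at 0 in every library.

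**Figure D3:**
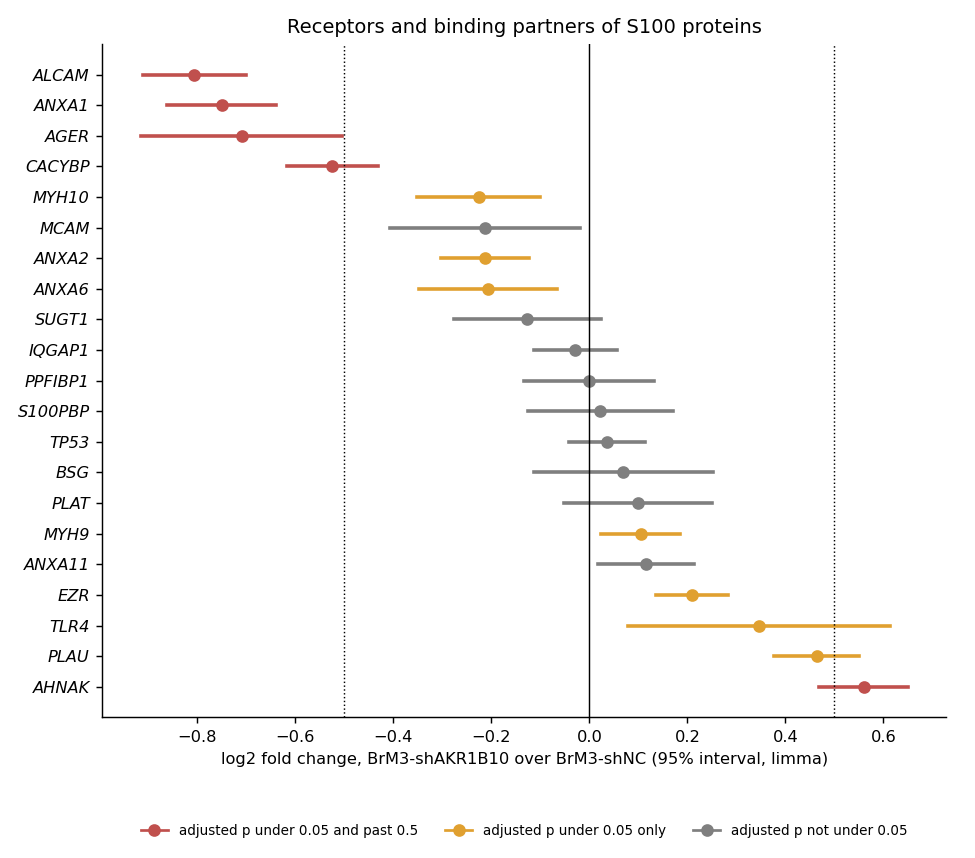
log2 fold change of FPKM plus 0.1 (x axis, BrM3-shAKR1B10 over BrM3-shNC) with its 95% interval from limma for the 21 receptors and binding partners tested. ALCAM, ANXA1, AGER and CACYBP lie below the dotted line at -0.5 and AHNAK above that at 0.5, with an adjusted p under 0.05.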

How the data were processed

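Poly-A RNA of 6 cell line libraries was sequenced. Per the study's methods, the authors aligned paired reads with HISAT2 2.0.5 and counted them per gene with featureCounts 1.5.0-p3 (versions as in the submitters' processing notes). The strand setting, the treatment of reads with several matches and the genome build are not given in the sources used here. The authors deposited FPKM per gene and library, beside gene length (another unit, bases), position and biotype, and replicates were not pooled. FPKM times gene length was a whole multiple (within 0.05) of 1 step per library for 100% of values. The multiples were taken as reads, and these served voom, the depths, the reads given per gene and the limits for a count of 0. The divisor that the step implies was above the reads on genes in every BrM3-shAKR1B10 library (17669819 against 17253067 in replicate 1). It was below them in every BrM3-shNC library (18350584 against 18709028 in replicate 1). The scaling of FPKM thus differed between the groups. The median log2 fold change of all genes tested was 0.0388 with voom on the reads, against -0.0113 on FPKM.

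The main comparison was limma 3.58.1 in R 4.3.3 on log2(FPKM + 0.1), with eBayes and a mean-variance trend, over the 13150 genes with a mean of at least 1 FPKM and Benjamini-Hochberg adjustment. A fold change on this scale understates the change of low genes. On data simulated for this comparison over 13150 genes, 185 of 200 changed genes were called (85 of 98 at a log2 change of 1), with 8 calls among 12950 unchanged genes. Tables were made in Python 3.11.15 with numpy 2.4.6 and pandas 2.3.3 and drawn with matplotlib 3.10.9. Promoters came from RefSeq (GRCh38.p14).

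The members, lists and tests were chosen with earlier results of these data known. All 10 members are named. Of other lists, at most the 8 genes of largest change with an adjusted p under 0.05 are named, with AKR1B10, partners listed for a member (ANXA2, AHNAK, CACYBP, MYH9, EZR, IQGAP1, AGER and TLR4) and genes whose span overlaps a member. Outside this rule, the remaining S100 genes, the cell type markers, BSG, MCAM, PLAT and PLG were named after their values were seen. Genes most like a called member were to be named, and with 0 called there are none. Same-numbered libraries did not deviate together, so the numbers only name libraries. Alternatives were pseudocounts of 1 and 0.01, no minimum level and a mean of at least 5 FPKM, TPM and quantile scaling, no trend, voom, a replicate block, a log2 threshold of 1 and each library left out. The 95% intervals are limma's and come from the spread between libraries, and limits for a count of 0 cover counting error only.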

Additional observations from a re-analysis of the deposited data

How the results depend on the processing

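The count of called S100 members was 0 in both directions under every alternative run, and S100A4 stayed lower (log2 fold change -0.44 to -0.33, limma adjusted p 0.000714 to 0.0196), S100A9 higher (0.26 to 0.43, adjusted p 4.51e-05 to 0.0383) and S100A16 higher (0.15 to 0.25, adjusted p 6.96e-05 to 0.0202). S100A6 gave 0.26 with an adjusted p of 0.0576 with no minimum level, where 31583 genes were tested. S100P ranged from 0.15 to 0.23 with 1 library left out, and its adjusted p was 0.054 without BrM3-shAKR1B10 replicate 3 and 0.0519 without BrM3-shNC replicate 3. S100A8 gave 0.22 (adjusted p 0.0462) with TPM and 0.14 to 0.24 with 1 library left out. S100A10 gave 0.13 (adjusted p 0.00884) with quantile scaling and 0.10 (adjusted p 0.0178) with voom. S100A11 turned to 0.0213 with TPM, 0.0763 with quantile scaling and 0.0335 with voom, and ranged from -0.0483 to 0.0283 with 1 library left out, being 0.0084 without BrM3-shAKR1B10 replicate 1 and 0.0283 without BrM3-shNC replicate 1. Of the partners, 0 were called lower and 0 higher at a log2 threshold of 1, 2 were called higher under TPM, quantile and voom scaling, the second being PLAU, and 3 or 4 were called lower with 1 library left out, without CACYBP where BrM3-shNC replicate 2 was left out. IQGAP1 turned to 0.0080 with TPM, 0.0563 with quantile scaling and 0.0205 with voom, and S100A5 ranged from -0.0362 to 0.2902 with 1 library left out. With the replicate block the adjusted p was 0.0939 for TLR4 and 0.0753 for MYH9, and the block ended no other call among the genes named. Adjusted p-values also passed 0.05 for TLR4 with quantile scaling (0.0622) and no minimum level (0.0785), for MYH9 with no trend (0.0969) and no minimum level (0.117), and for KRT7 with TPM (0.0738), quantile scaling (0.421) and no minimum level (0.0832). The cause of these changes was not tested, apart from the stricter threshold. AGER was not tested at a mean of at least 5 FPKM, where 3 partners were called lower. SPRR1A was not tested there either, which left 0 genes of the epidermal differentiation complex called, and S100A8 and S100A2 gave no value there. Over all genes, 708 were called lower and 497 higher at a pseudocount of 1, 532 and 290 at a mean of at least 5 FPKM, and 851 and 984 with voom, against 980 and 766. The scalings moved the median of all genes by at most 0.05 on the log2 scale. With the replicate block, 967 genes were called lower and 719 higher, and the members at an adjusted p under 0.05 alone numbered 1 lower and 4 higher, as without it. Deviations of same-numbered libraries correlated at -0.0155, 0.0039 and 0.0038, so the numbers do not pair them. S100A2 and S100A8 rested on the fewest reads of the members, 52 to 101 per library.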
